A study of Homo sapiens with 32 samples.

Results

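The steady-state RNA of human B-lymphoblastoid cell lines was measured on the 16 arrays of total RNA among the 32 arrays of the series. These 16 arrays held 13 cultures of 7 lines. The lines were HapMap lymphoblastoid lines, that is, B cells of a donor made to grow without limit by the Epstein-Barr virus, and each line came from 1 person. GM07029, GM10835 and GM12813 were grown as 3 cultures each, and every GM12813 culture was hybridised to a pair of arrays as a technical duplicate. GM07019, GM12812, GM12814 and GM12815 had 1 culture each. All cultures, without an untreated control, had been given 200 µM 4-thiouridine (4sU), a uridine analog that new RNA takes up, for 2 h. Total RNA was depleted of ribosomal RNA and hybridised to the human exon array, and the deposited values were log2 signals of transcript clusters, which are the gene-level probe groups of that array. The study set out to compare RNA decay between persons. The total RNA gives the other side of that question, the amount of each RNA present in each line. Duplicates were averaged to a culture, cultures to a line, and the 7 lines to 1 level.

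An RNA's steady-state level is set by how fast it is made and how fast it is lost, so a total RNA array sees the balance of both and not either one. In a B cell the abundant messages serve antigen presentation, which loads peptides on HLA proteins, and the B cell receptor. The Epstein-Barr virus adds a growth program in which its membrane protein LMP1 imitates the CD40 receptor and switches on NF-kB, and the lines also resemble B cells on the way to antibody-secreting plasma cells. In bulk RNA, fewer cells of one kind and less RNA per cell cannot be told apart.

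A level here is a hybridisation signal. Probe groups differ in how strongly they bind, so the rank of a gene orders signals and is not a number of transcripts. Whether a probe group bound alike in the RNA of all 7 persons was not tested. Background was set at 5.98 log2 units, the 95th percentile of the levels of 221 clusters for olfactory receptors, genes that B cells are not known to use. Of 21788 clusters, 13973 (64.1%) had a mean above it and were tested. Of the 13945 genes that had a cluster with 1 symbol and could be named, 8660 lay above background in all 7 lines, 3729 lay below it in all of them and 1556 lay above it in 1 to 6 lines. The median log2 signal of an array ranged from 6.74 to 6.95. Cultures of the same line correlated across clusters at 0.977 to 0.992 (9 pairs) and cultures of different lines at 0.895 to 0.972 (69 pairs). The technical duplicates correlated at 0.974 to 0.990 (3 pairs). Their median was 0.979, between single arrays of GM12813. The median of 0.986 for cultures of the same line covered all replicated lines, with GM12813 duplicates averaged, so these medians are not of like units. Culture pairs within GM12813 correlated at 0.977, 0.983 and 0.992. GM10835 stood apart, with a mean correlation of 0.917 with the other 6 lines, the lowest of all lines, against 0.959 for GM12813, the highest. Its 3 cultures were also the most alike, with a median SD between cultures of 0.09 over tested genes, against 0.16 in GM07029 and 0.15 in GM12813.

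The lines carried the markers of their label. All 10 B cell markers with a cluster of 1 symbol lay above background in all 7 lines, from CR2, the complement receptor through which the virus enters, at a mean of 9.10 to CD74, the chaperone of HLA class II, at 12.41. All 7 markers of virus-driven growth did too, with CCL22, a chemokine, at 11.39 and TRAF1, an adaptor in the NF-kB pathway, at 10.54. Of 26 T and NK cell markers, 13 lay below background in every line, among them the T cell receptor chains CD3D at 3.96, CD3G at 4.20 and CD3E at 5.13. The sum of their 26 log2 levels ran from 141.6 in GM07019 to 145.8 in GM10835. Another 8 lay above background in all 7 lines, among them LCK, a kinase of T cells, at 9.80, CD7 at 8.03 and NKG7 at 7.68. Of 16 monocyte and granulocyte markers, 9 lay below background throughout, among them LYZ at 3.50 and CD14 at 4.74. The 4 above it throughout were CD68 at 8.53, MNDA at 7.75, ELANE at 7.21 and MARCO at 6.52. The sum of the 16 ran from 84.6 in GM07019 to 88.3 in GM07029, where VCAN of this list read 8.33. Of 19 fibroblast and epithelial markers 6 lay below and 8 above background throughout, from EPCAM at 3.00 to the keratin KRT8 at 10.35, and their sum ran from 110.9 in GM12812 to 114.0 in GM12815. A signal just above background was no proof of expression: 5 of 22 genes of liver, neuron and muscle lay above it in all 7 lines, GFAP of astrocytes at 7.00 and ACTA1 of skeletal muscle at 7.13. Whether other cells had a part in the results was not tested.

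The highest signals came from genes of glycolysis, chromatin, the cytoskeleton, protein folding and antigen presentation. The median over all 13945 genes was 7.00, only 746 genes (5.35%) reached 10, and 39 reached 12. The highest was LDHA, the lactate dehydrogenase subunit that ends glycolysis, with a line mean of 13.47 to 13.78 and an average of 13.56 ± 0.11 (SD, n = 7 lines). ENO1, another glycolytic enzyme, averaged 13.12 ± 0.18. The 24 highest genes ended with HNRNPA2B1, an RNA-binding protein, at 12.29, just above the next gene at 12.27.

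By role, 7 of the 24 were histone genes that are expressed for DNA replication: H3C2 (13.19), H3C3 (12.97), H2AC21 (12.91), H2AC16 (12.61), H1-4 (12.55), H3C11 (12.39) and H2BC14 (12.34). Members of these families are near copies of each other, so their probes may share signal and single histone genes remain uncertain. Antigen presentation supplied HLA-DPA1 at 12.89 and HLA-DPB1 at 12.34, the chains of the class II molecule DP, with CD74 at 12.41, the class I molecule HLA-E at 12.31 and CALR, a chaperone of class I loading, at 12.44. HSPA8, the constitutive heat shock protein, reached 13.12. The cytoskeleton supplied LCP1 (plastin of blood cells) at 13.11, ACTB (beta-actin) at 12.87, TUBB (beta-tubulin) at 12.85 and CAPZA1 (actin capping protein) at 12.33. Membrane proteins of blood cells were LAPTM5 at 13.03 and CD53 at 12.83. JCHAIN, which joins antibody molecules into polymers, stood at 12.38, and CYB5B, a mitochondrial cytochrome b5, at 12.43.

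The promoters of 4 of the 24 highest genes held the letters TATAAA at the place of a TATA box, and 2 of the 24 genes with the largest spread did as well. They are shown because they are the members of both sets that hold the motif. Each is a 30-base stretch from RefSeq on GRCh38.p14, read 5′ to 3′ on the strand of the gene, with the 6 letters in capitals.
H3C2, chr6:26032114-26032143, minus strand: gtggtctgactcTATAAAagaagagtagct
H2AC21, chr1:149887977-149888006, minus strand: cccggtagctctTATAAAttacatcaaatt
H1-4, chr6:26156288-26156317, plus strand: agctccgccctaTATAAAcgggcgggcgca
CALR, chr19:12938567-12938596, plus strand: gaggcgggtgggTATAAAagtgcaaggcgg
MMP7, chr11:102530760-102530789, minus strand: gctgagaagctaTATAAAtttctgcagtca
H1-1, chr6:26017801-26017830, minus strand: gcagtcccacccTATAAAtaggctgcgttg
The box began 29 to 32 bases before the listed start of these genes. The search took TATAAA on the gene's own strand, beginning 20 to 40 bases before the first start that RefSeq lists, and 11168 of the 13945 genes had a promoter in the table. It found the motif in 4 of 21 of the highest genes, in 5.88% of the 500 highest, in 2.13% of all tested genes and in 5.61% of genes below background. Over all 27305 promoters of the table the share was 2.55%. Anywhere in the 300 bases from 250 before to 50 after the start, TATAAA or its reverse complement TTTATA stood in 33.3% of the promoters of the highest genes and in 5.87% of those of tested genes, and over the whole table in 3264 of 27305. A match describes letters in a window and does not show that the box is used.

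Gene lists ordered by their median level put antigen presentation on top. The 7 genes of HLA class II had a median of 12.11, and 12 genes of HLA class I and peptide loading had 10.49. Cytoskeletal genes stood at 10.27, the 48 replication-dependent histones at 10.13 and 18 glycolytic enzymes had a median at the 94.6th percentile of all genes. The plasma cell and secretory list (9.61) and the NF-kB and CD40 list (9.55) followed, and all members of both lay above background in every line. The 37 interferon-stimulated genes and the 41 B cell identity genes had medians of 9.16 and 9.15. Oxidative phosphorylation (62 genes, 8.32), mitochondrial ribosomal proteins (65 genes, 8.36) and cytosolic ribosomal proteins (26 genes, 7.81) were lower, although they serve every cell. The order of lists is one of signals and not of transcript numbers. Cytokines and chemokines spanned the scale, from 3.28 to 11.39 with a median of 6.91. At the bottom, cancer-testis antigens had a median of 4.14, with 21 of 27 below background in every line, and HOX genes 5.38, with 15 of 22. The plot of levels by list shows these positions against the background and the median of all genes.

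**Figure D1:**
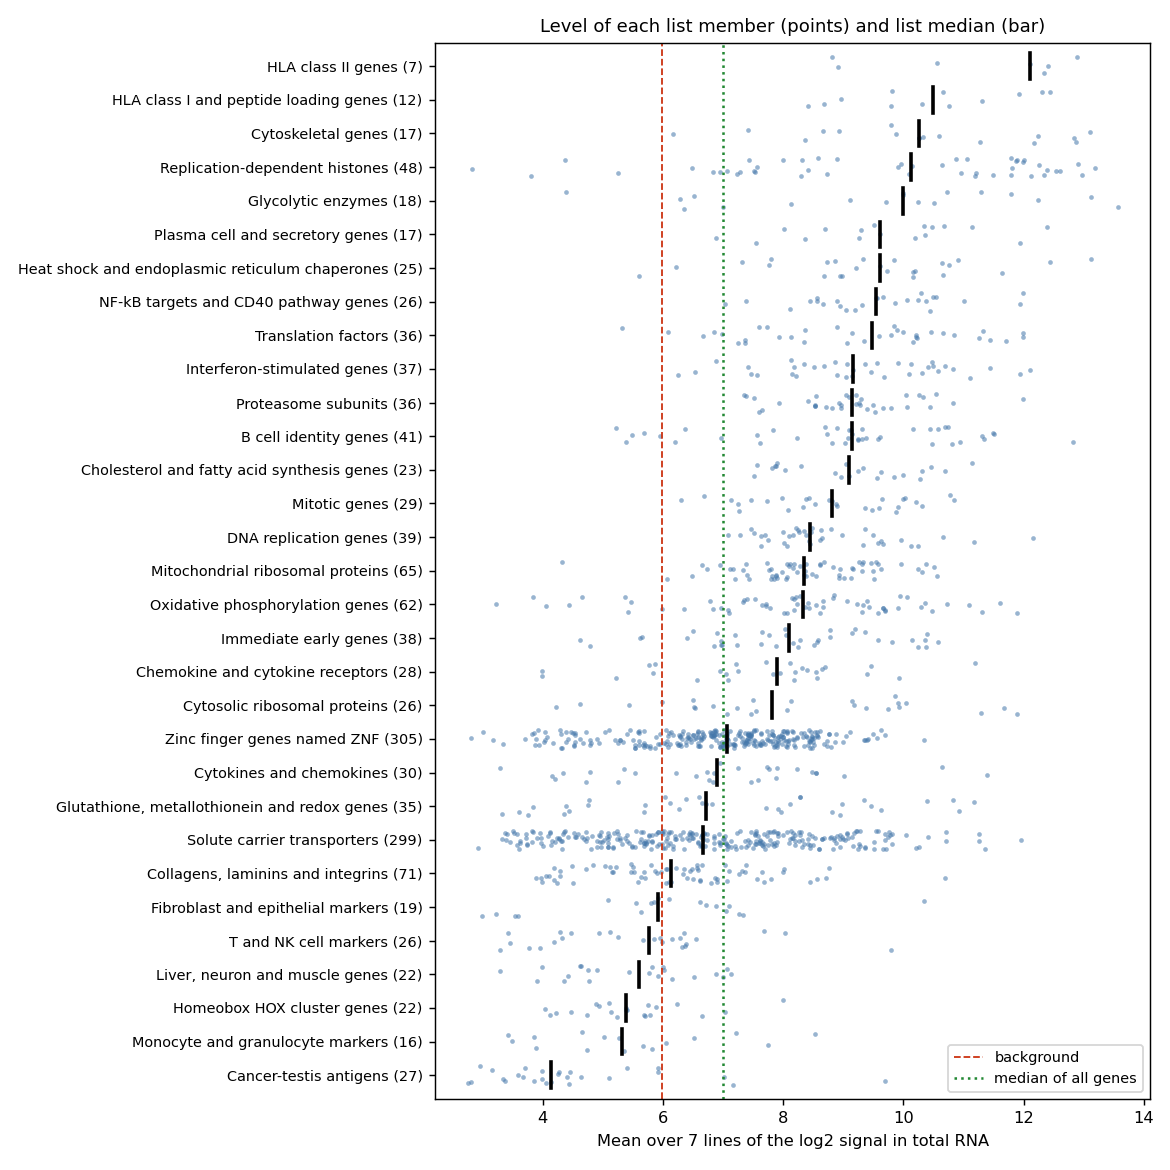
Mean log2 signal in total RNA over 7 lines (x axis) for every member of 31 gene lists (rows, number of genes in parentheses). Points are genes, the black bar is the list's median, the dashed line is background at 5.98 and the dotted line the median of all genes at 7.00. HLA class II genes lie highest with a median of 12.11 and cancer-testis antigens lowest with 4.14.

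Levels differed between lines more than between cultures of a line for most genes. The SD of the 7 line means had a median of 0.26 over the 9507 tested genes with a 90th percentile of 0.52, whereas the SD between cultures of a line had a median of 0.15. The lines differed by less than 0.5 between highest and lowest in 2424 genes (25.5%), by at least 1, a doubling, in 2705 (28.5%) and by at least 2 in 402 (4.23%). A moderated F test in limma over the 7 lines, with Benjamini-Hochberg adjustment, called 8639 of 13973 clusters (61.8%) at 0.05. Without GM10835, the line with the smallest spread between cultures, the count was 3189, and 3148 of these were among the 8639. Leaving out GM07029, which also removes 3 cultures, gave 7042. The spread between cultures was estimated from the 3 lines with several cultures alone, and the 4 lines with 1 culture were taken to vary alike.

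The spread was smallest near background. Median SD over lines was 0.17 in the lowest of 10 equal classes of level, 0.30 in class 6 and 0.26 in the highest, while the share called went from 31.5% in the lowest to 73.9% in the highest. Median SD between cultures stayed between 0.13 and 0.16 in all 10 classes. Among the 24 highest genes the SD ran from 0.09 (CD53) to 0.55 (H2BC14), and 19 of them were called. Without GM10835 only 7 of these calls remained: 6 of the 7 histone genes, and JCHAIN. The other 12, among them ENO1 (adjusted p = 0.38 without that line), HLA-DPA1 (0.33) and CD74 (0.06), were no longer past the threshold. Without GM07029, 5 of the 19 calls were lost, those of LCP1, LAPTM5, ACTB, HLA-E and HNRNPA2B1, all of them among the 12. For LDHA the test gave an adjusted p of 0.065, for HSPA8 0.089 and for CD53 0.12. H3C2, the highest histone gene, measured 13.52 in GM07019, 12.80, 12.54 and 12.69 in GM07029, 12.69, 12.69 and 12.56 in GM10835, 13.50 in GM12812, 13.25, 13.26 and 13.23 in GM12813, 13.36 in GM12814 and 13.35 in GM12815. All 6 cultures of GM07029 and GM10835 lay below the 7 others.

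**Figure D2:**
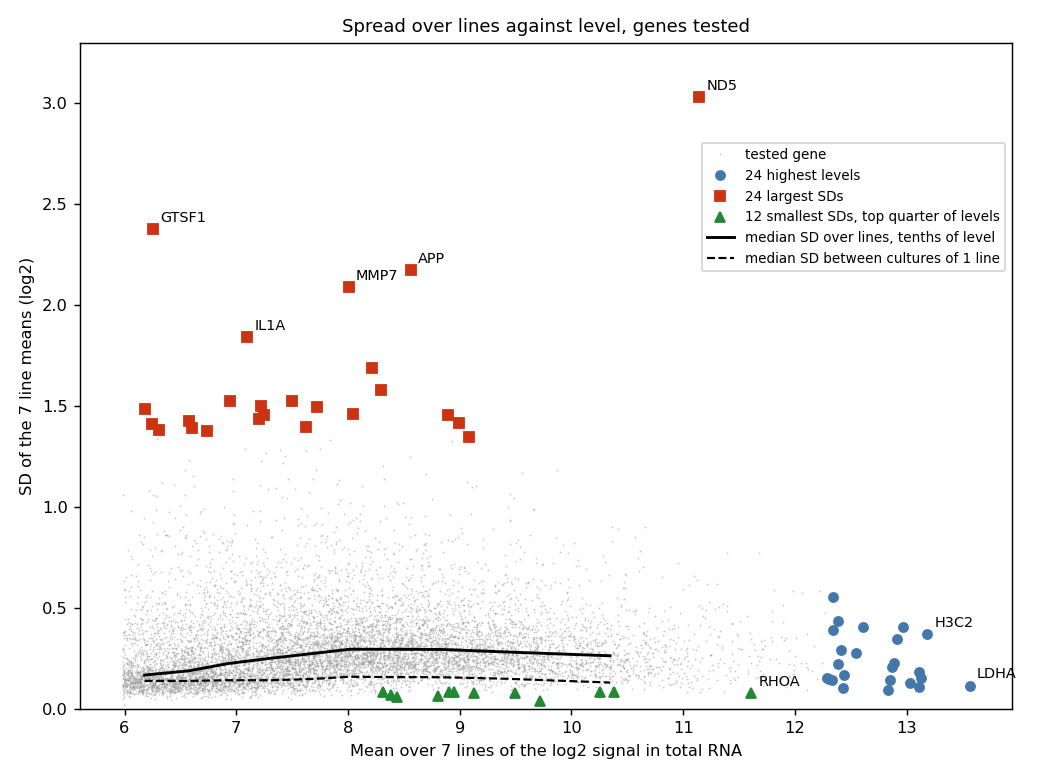
SD of the 7 line means (y axis, log2 units) against the mean log2 signal (x axis) for the 9507 tested genes, with the 24 highest levels (circles), the 24 largest SDs (squares) and the 12 smallest SDs at high levels (triangles). The solid line is the median SD over lines in 10 classes of level, between 0.17 and 0.30, and the dashed line the median SD between cultures of 1 line, between 0.13 and 0.16.

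The genes with the largest spread were mostly not those that define a B cell. They were chosen for their spread, so their values describe the ranking, and the call of all 24 in the 7-line test follows from the choice. In 20 of the 24 at least 1 line fell below background. GM10835 was the highest line in 10 of them, and without it 15 of the 24 stayed among the 24 largest. 23 of the 24 calls also held without it, while the mean of GPM6A, a neuronal membrane protein, then lay below background.

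The first was ND5, a subunit of respiratory complex I that is encoded in mitochondrial DNA. It lay between 11.90 and 12.53 in 6 line means, whereas the GM12813 cultures gave 5.14, 4.52 and 3.20, all below background. Whether the RNA was missing in GM12813 or its probes bound less well there was not tested. GTSF1, a factor of the piRNA pathway in germ cells, was high in GM07019 (9.24) and GM12812 (9.45), intermediate in GM10835 (6.99, 6.71 and 7.17), at 5.90 in GM12815, and between 3.70 and 4.23 in the 7 cultures of GM07029, GM12813 and GM12814. APP, the amyloid precursor protein, split the lines: it read 10.84 in GM07019, 10.10 in GM12812, 9.89, 9.84 and 9.82 in GM12813 and 10.24 in GM12814. It read 5.69, 5.88 and 5.93 in GM07029, 6.23, 5.85 and 5.86 in GM10835 and 7.08 in GM12815, and no culture lay between 7.08 and 9.82.

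MMP7, a secreted protease, reached 11.31, 11.09 and 11.22 in GM10835 and 10.01, 10.18 and 10.51 in GM07029, against 8.65 in GM12812, 7.76, 7.47 and 7.11 in GM12813 and 5.89 to 6.33 in the 3 remaining lines. IL1A, a cytokine of inflammation, was highest in GM07029 (9.60, 9.49 and 9.73) and below background in GM10835 (5.20, 4.89 and 4.77) and GM12814 (4.72). CYP1B1, an oxidase induced by the aryl hydrocarbon receptor, averaged 9.84 in GM07029 and read 5.51 in GM12812. H1-1, a linker histone gene with a TATAAA box, ran from 5.71 in GM10835 to 10.78 in GM12812, while its relative H1-4 stayed between 12.10 and 12.83.

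The others of the 24 included surface receptors of immune cells, CCR9 (SD 1.52), which guides cells to the gut, and IL23R (1.39), both highest in GM10835. Molecules better known from nerve cells were NRN1, CHL1 (SD 1.45) and GPM6A (1.41). FAM30A, a long non-coding RNA, read 5.52 to 5.71 in GM07029, 8.80 to 8.95 in GM10835 and 8.23 to 8.35 in GM12813. KLHL6, which acts in B cell receptor signalling, was at 10.60, 10.60 and 10.71 in GM10835 and at no more than 7.58 elsewhere. The list ended with F13A1, a subunit of coagulation factor XIII, at an SD of 1.35. The plot of these 24 genes by culture shows that the cultures of 1 line lay close together in nearly every gene. RPS27L was an exception: its GM07029 cultures read 8.80, 10.07 and 9.73 and those of GM12813 7.25, 7.60 and 6.22.

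**Figure D3:**
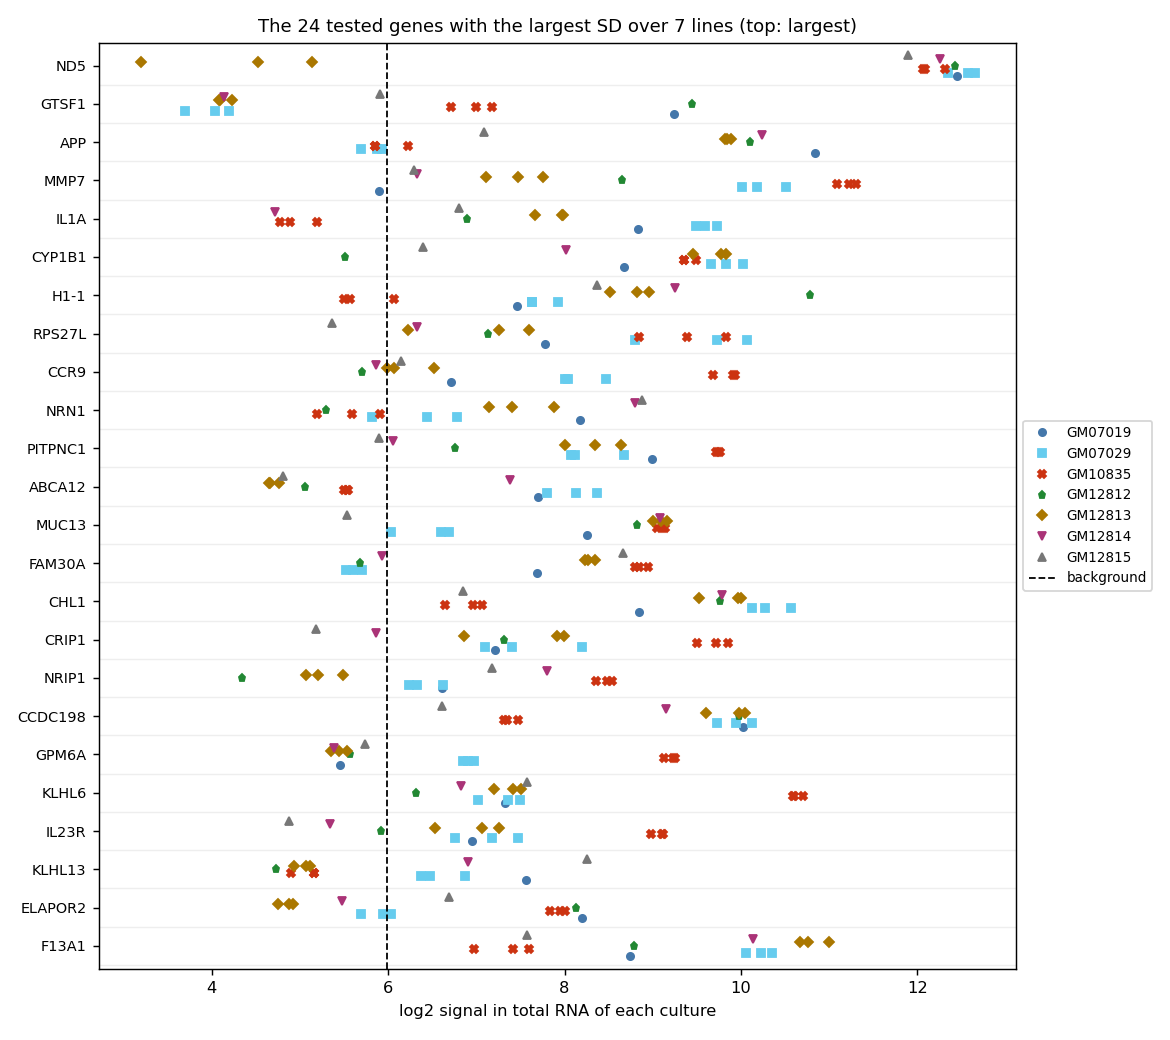
The 24 tested genes with the largest SD over 7 lines (rows, largest at the top), with the log2 signal of each of 13 cultures (x axis). Colour and shape give the line and the dashed line is background at 5.98. GM12813 alone lies below background for ND5, and the 3 cultures of GM10835 lie alone on the right for KLHL6 and GPM6A.

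At the other end were genes of high level, above 8.30, with nearly the same signal in every line. The smallest SD was that of FAM168B, 0.04, with all 13 cultures between 9.62 and 9.83. RHOA, a switch protein of the actin cytoskeleton, had the highest level among them, 11.61 ± 0.08 (SD, n = 7), with 11.46 in GM12814 as its lowest culture. LSM14A of mRNA processing bodies, the mitochondrial ribosomal protein MRPS30 and the exonuclease REXO2 were others of the 12, which were chosen for a small SD, up to 0.08. None of the 12 was called by the 7-line test, with adjusted p from 0.53 to 0.94. Of the virus-driven markers TRAF1 was of this kind, with an SD of 0.10 and an adjusted p of 0.45. PAX5, the transcription factor that fixes B cell identity, had 9.58 ± 0.11 and an adjusted p of 0.12 over the 7 lines. The test between the 3 replicated lines called it (adjusted p = 0.023), with a difference of -0.37 ± 0.10 (SE) between GM10835 and GM07029. That 3-line call was lost in 5 alternative settings, and the call of the pairwise difference in 1.

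Other B cell genes varied. CCL22 read 12.20, 12.41 and 12.19 in GM07029 and 9.98 in GM12814 (SD 0.77, adjusted p = 7.3e-06). EBI3, the cytokine subunit induced by the virus, read 11.04, 11.05 and 11.01 in GM10835 and 8.61 in GM12815 (SD 0.80, adjusted p = 3.7e-05). MS4A1, which encodes CD20, ran from 9.84, 9.53 and 9.47 in GM10835 to 11.71 in GM12815 (SD 0.65, adjusted p = 4.9e-05). FCER2, which encodes CD23, lay between 11.46 and 11.93 in 12 cultures and at 10.57 in GM12814, and its call (adjusted p = 2.3e-04) was lost without that line (0.06). CR2 was highest in GM07029 (10.85, 10.50 and 10.68) and lowest in GM12814 (7.53). These 3 calls for CCL22, EBI3 and MS4A1, and that for CR2, also held when GM10835 was left out.

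The 3 lines with 3 cultures each allowed pairwise comparisons with culture spread on both sides. The labels do not say how separate the cultures were, so the p-values measure the spread between these samples. The moderated F test called 7912 of 13973 clusters (56.6%). GM10835 and GM07029 differed in 6756 clusters (48.4%), 4132 higher in GM10835 (29.6%) and 2624 lower (18.8%). GM12813 differed from GM07029 in 3446 (24.7%), 1558 higher (11.2%) and 1888 lower (13.5%), and from GM10835 in 5350 (38.3%), 1778 higher (12.7%) and 3572 lower (25.6%). The split by direction depended on scaling: under quantile normalization the share of calls higher in GM10835 than in GM07029 went from 61.2% to 49.0%, and the share higher in GM12813 than in GM10835 from 33.2% to 53.0%. The median difference over all tested clusters moved from -0.05 to 0.05 in the latter. The count for GM12813 against GM07029 was 2245 without the third GM07029 culture and 1898 with the first array alone of each duplicate pair, and was 3847 with the second array alone. Its 1558 clusters higher in GM12813 became 2525 under quantile normalization, 1021 without the first GM07029 culture and 897 without the second GM12813 culture. Its 1888 lower ones became 1061 without the third GM07029 culture and 1253 without the third GM12813 culture. They rose without the first GM12813 culture, where 1147 of 3324 calls were higher. At least 2-fold apart were 784 clusters higher (5.61%) and 490 lower (3.51%) in GM10835 than in GM07029, 77 higher (0.551%) and 314 lower (2.25%) in GM12813 than in GM07029, and 247 higher (1.77%) and 943 lower (6.75%) in GM12813 than in GM10835. The 3 comparisons share samples, so their lists are not independent.

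Several of the largest differences lay between a line with a clear signal and a line whose mean was not above background. For these only a bound is given, the higher line's mean minus background, beside limma's adjusted p. IL1A was at least 3.62 log2 units higher in GM07029 than in GM10835 (adjusted p = 7.8e-09), PTPRK, a receptor phosphatase, at least 3.43, and LIPH, a lipase, at least 3.20. MAPK13, a p38 kinase, was at least 2.93 higher in GM10835. KLHL6, above background in both lines, was higher in GM10835 than in GM07029 by 3.35 ± 0.14 (SE). Between GM12813 and GM07029, APP was at least 3.87 higher in GM12813 (adjusted p = 3.0e-09). LEF1, a transcription factor of the Wnt pathway, was higher there by 3.06 ± 0.15, from 6.24, 5.70 and 6.08 in GM07029, which lay close to background. ANXA1, an anti-inflammatory annexin, was at least 2.86 higher in GM07029 than in GM12813, and DPYD, which degrades uracil, at least 3.09. GM12813 against GM10835 gave NEDD8, a ubiquitin-like modifier, at -3.81 ± 0.19, from 11.66, 11.78 and 11.65 in GM10835 to 7.88, 8.09 and 7.68 in GM12813.

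Genes of mitochondria and of protein breakdown were higher in GM10835 than in GM07029 and GM12813. The lists named here were drawn up with earlier results of these data known, so their counts describe the lines. Of 54 tested oxidative phosphorylation genes, 45 were higher and 0 lower in GM10835 than in GM07029, with a median difference of 0.89 against 0.13 over all 9507 tested genes. Of all tested genes 31.2% were higher and 16.8% lower in this comparison, the base for the other lists of this paragraph too. Against GM10835, 47 of the 54 were lower in GM12813 and 0 higher (median -1.08, all genes -0.05), and GM12813 against GM07029 gave 1 higher and 8 lower, or 6 and 11 under quantile normalization, where the median turned from -0.05 to 0.04. Over all clusters, 25.6% were lower and 12.7% higher in GM12813 than in GM10835. Against GM07029 the shares were 13.5% lower and 11.2% higher. COX7A2, a subunit of cytochrome c oxidase, read 11.09, 11.10 and 11.22 in GM10835, 10.45, 10.30 and 10.48 in GM07029, 9.66, 9.53 and 8.69 in GM12813 and 8.22 to 9.16 in the 4 other lines. The GM10835 cultures lay above all others. Mitochondrial ribosomal proteins had 48 of 64 higher and 0 lower in GM10835 than in GM07029 (median 0.67). Proteasome subunits had 26 of 36 higher and 2 lower (median 0.58): PSMB3 read 10.74, 10.71 and 10.89 in GM10835 and at most 9.10 elsewhere, and PSMB8, which makes peptides for HLA class I, 9.88, 9.97 and 10.01 against at most 8.60. Cytosolic ribosomal proteins gave 14 of 23 higher and 0 lower (median 0.55), RPL18 among them by 1.32 ± 0.09. This list holds only the genes of the family that had a cluster with 1 symbol. Its median SD between cultures was 0.24, against 0.15 over all tested genes. Without GM10835 the 7-line calls of PSMB3, PSMB8 and RPL18 were lost, with adjusted p of 0.44, 0.77 and 0.16, while COX7A2 kept its call (0.0063). In GM10835 against GM07029 these lists kept their direction under quantile normalization and median centring, with medians of 0.76 and 0.84 for oxidative phosphorylation.

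Deviations from the mean of the 7 lines show the same lists in lines with 1 culture. The median deviation of oxidative phosphorylation genes was 1.00 in GM10835 and between -0.28 and -0.03 in the other 6 lines. That of proteasome subunits was 0.76 in GM10835 and -0.33 to 0.11 elsewhere. Without GM10835, 7 of 53 oxidative phosphorylation genes (13.2%), 4 of 36 proteasome subunits (11.1%) and 3 of 64 mitochondrial ribosomal proteins (4.69%) differed among the 6 lines, against 22.9% of all clusters. Over the 7 lines it had been 48 of 54, 34 of 36 and 55 of 64, against 60.5% of all tested genes. The part of RNA quality or of growth state in this pattern was not tested. Mitotic genes, as 1 measure of growth, had median deviations of 0.27 in GM10835, 0.24 in GM07019 and 0.16 in GM07029, and -0.24 to 0.03 in the others. Under quantile normalization those 3 lines had 0.13, 0.11 and 0.11. Other lists tied to growth gave other orders of the lines. DNA replication genes had 0.31 in GM10835, 0.24 in GM07019, 0.10 in GM12813, -0.03 in GM07029 and -0.27 to -0.12 in the others. Replication-dependent histones had -0.57 in GM10835, -0.47 in GM07029 and 0.39 in GM07019.

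Replication-dependent histones ran the other way. Of 44 tested, 32 were higher and 1 lower in GM12813 than in GM07029 (median 0.65), and 34 higher and 0 lower than in GM10835 (median 0.71). Over all clusters, 11.2% were higher and 13.5% lower in GM12813 than in GM07029. Against GM10835 the shares were 12.7% higher and 25.6% lower. Median deviations were -0.47 in GM07029 and -0.57 in GM10835, and 0.07 to 0.39 in the 5 other lines, with the same signs in these 2 lines under both other scalings. Histone mRNAs lack a poly(A) tail, and these arrays were made from total RNA reduced in ribosomal RNA. 25 of the 44 histone genes also differed among the 6 lines without GM10835 (56.8%, against 22.9% of all clusters).

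Interferon-stimulated genes separated other lines. Of 37 tested, 23 were lower and 7 higher in GM10835 than in GM07029 (median -0.53), and 23 were lower and 1 higher in GM12813 than in GM07029 (median -0.50). For GM10835 that was 62.2% lower and 18.9% higher, against 16.8% and 31.2% of all tested genes. For GM12813 against GM07029, 13.5% of all clusters were lower and 11.2% higher. The median deviation was 0.42 in GM07029 and 0.36 in GM12812, and -0.74 in the single culture of GM12815, with the same signs under both other scalings. In GM12813 against GM10835 the median was -0.03 and became 0.12 under quantile normalization. GBP5, a guanylate-binding protein that acts against intracellular microbes, read 8.78, 8.33 and 8.60 in GM07029 and 5.02 in GM12815, with 7.40 to 8.06 in the remaining cultures. GBP4 read 9.11, 8.64 and 8.98 in GM07029 and 5.06 in GM12815. Both fell below background in GM12815 alone. Without GM10835 the F test called 29 of 37 (78.4%, against 22.9% of all clusters), and all 29 had been called among 7 lines.

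The plasma cell and secretory list had 12 of 17 genes higher (70.6%) and 2 lower (11.8%) in GM10835 than in GM07029 (median 0.77). Of all tested genes 31.2% were higher and 16.8% lower. Its members included JCHAIN, at 12.98, 12.93 and 13.10 in GM10835 against 11.74, 11.61 and 11.67 in GM07029, and MZB1, a chaperone of antibody assembly, higher by 2.31 ± 0.11 (adjusted p = 1.4e-07). XBP1, the transcription factor of secretory cells, was highest in GM12812 at 12.02 and lowest in GM07029 (10.31, 10.58 and 10.56). Deviations were 0.40 in GM10835, 0.36 in GM12812 and 0.29 in GM07019, and -0.32 to -0.14 in the other 4. Of 36 B cell identity genes, 11 were higher (30.6%) and 6 lower (16.7%) in GM10835 than in GM07029, near the 31.2% and 16.8% of all tested genes. Under quantile normalization these became 9 and 13, and the median difference went from 0.11 to -0.02. Of 26 NF-kB and CD40 pathway genes 7 were higher (26.9%) and 5 lower (19.2%), again near the shares of all genes, with 6 and 11 under quantile normalization and a median that went from 0.06 to -0.07.

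**Figure D4:**
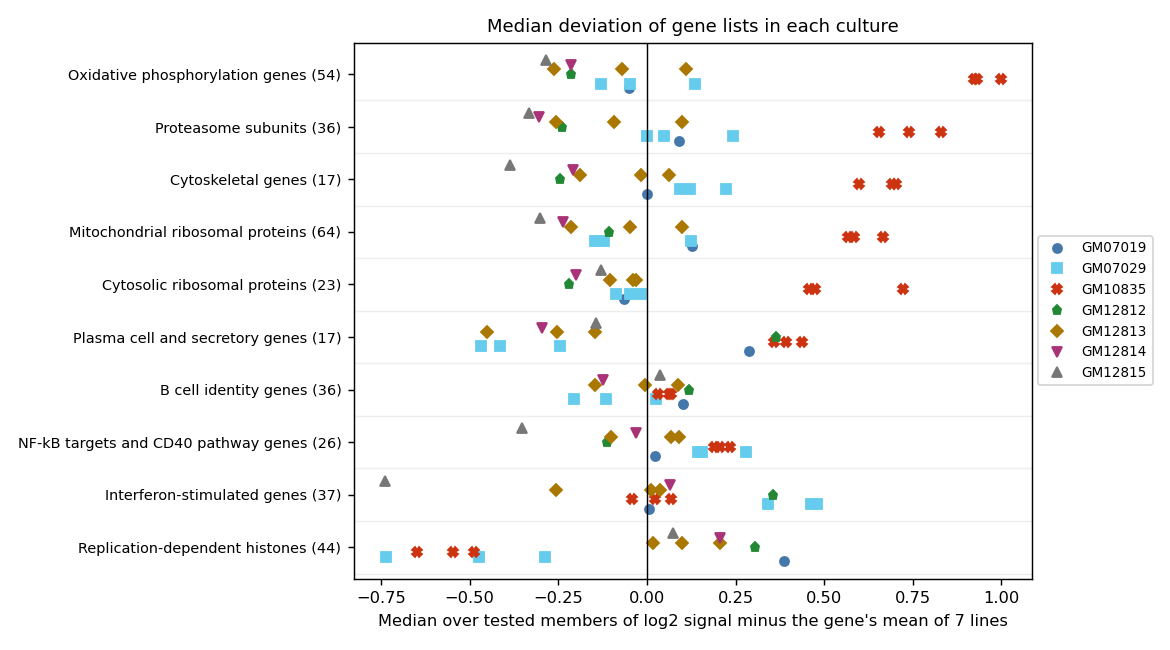
Median over the tested members of 10 gene lists (rows, number tested in parentheses) of the log2 signal minus the gene's mean of 7 lines (x axis), for each of 13 cultures, with colour and shape giving the line. The 3 cultures of GM10835 lie to the right of all others in the first 5 lists, GM12815 lies to the left in interferon-stimulated genes, and GM07029 and GM10835 lie to the left in histones.

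Genes in which 1 line stood alone came mostly from GM10835. It exceeded every other line by at least 1 log2 unit in 228 genes (1.63% of 13945), GM07029 did so in 27, GM12815 in 11 and each other line in 4 to 9. Under quantile normalization the GM10835 count was 163 and at a margin of 2 log2 units 14. The widest gap was that of GALNT5, which starts sugar chains on secreted proteins, at 8.20, 8.44 and 8.20 in GM10835 and 3.71 to 4.14 in the 10 other cultures. HHLA2, a relative of the B7 molecules that regulate T cells, read 7.34, 7.03 and 7.37 there and at most 3.46 elsewhere, and STAT4, the transcription factor downstream of interleukin 12, 8.57, 8.38 and 8.62 against at most 5.46. All 3 had means below background and were not tested. Of the 228, 15 were oxidative phosphorylation genes (24.2% of that list) and 10 mitochondrial ribosomal proteins (15.4%).

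GM12815 was the line most often lowest, by at least 1 log2 unit with the next line above background in 57 genes, against 17 for GM10835 and 1 to 3 for the other lines. They included GBP4, GBP5 and OAS3 of the interferon-stimulated list and ITGB8, an integrin, at 6.38 against 8.47 in the next line. Since GM12815 was 1 culture, no culture spread stands beside this count. Single genes marked other lines: VCAN, a matrix proteoglycan, read 8.33 on average in GM07029 and at most 5.73 in another line, and TEX15, a germ cell gene, 6.92 in GM12813 and at most 4.09. CNTN6, a neural adhesion protein, read 6.93 in GM12815 and at most 3.98 elsewhere, and PLS3, a plastin, 8.68 in GM07019.

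**Figure D5:**
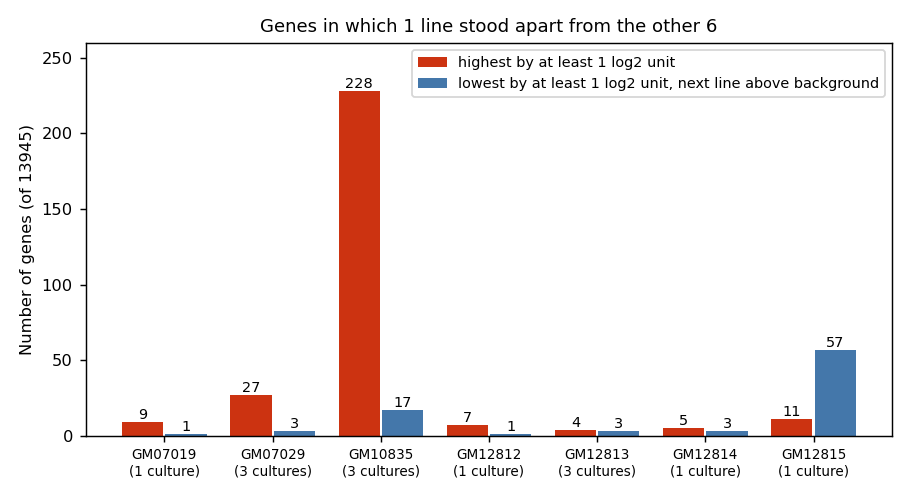
Number of genes, of 13945, in which a line was the highest (red) or the lowest (blue) of 7 by at least 1 log2 unit, with the lines on the x axis and the number of cultures below each name. GM10835 was highest in 228 genes and GM12815 lowest in 57.

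Genes that were at least 2 log2 units above background in some line and below it in another numbered 84. Of these, 50 were above background in 6 lines and 4 in a single one. GM12815 lay below background in 37 of them and GM10835 in 29, whereas GM07019 did so in 12. At a margin of 3 log2 units the number was 21. They were long genes, with a median span of 62.1 kb against 27.3 kb of all tested genes, and TATAAA stood at the box position in 6 of 69 (8.70%) against 2.13%. Among genes below background the share was 5.61%. The on-off genes also had a lower median level, 6.98 against 7.85 of tested genes. This set was chosen on the values, so these are descriptions.

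Promoters and gene length also differed between the ends of the spread ranking among genes of high level. Among genes with levels above 8.30, the 500 genes with the smallest SD had a median span of 44.5 kb, a TATAAA box in 0.674% of promoters and an observed-to-expected CpG ratio of 0.6 or more in 87.2%. For the 500 with the largest SD the values were 20.6 kb, 3.29% and 75.8%. The median levels, 9.48 for the smallest SDs and 9.05 for the largest, were not matched. The lines also differed with gene length. From the shortest to the longest of 5 classes of tested genes by span on the genome the median deviation of GM10835 went from 0.14 to -0.01 and that of GM07029 from -0.13 to 0.14. In GM12815 it went from -0.06 to -0.17. The 228 genes that led in GM10835 had a median span of 11.5 kb, and the 57 that were lowest in GM12815 one of 48.8 kb. Whether RNA integrity or labelling differed between these lines was not tested.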

How the data were processed

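Total RNA of 7 lymphoblastoid lines was measured on 16 human exon arrays. The deposited values were log2 signals per transcript cluster. Affymetrix Power Tools and hg18 are named, per the submitters' processing notes; how probes were summarised and arrays normalized is not stated there. The number of arrays limits the precision. Nascent RNA arrays were not used. Technical duplicates were averaged to 13 cultures, cultures to lines.

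Of 21788 clusters, 14405 had 1 gene symbol, 2365 several and 5018 none in the platform annotation, and 14377 symbols were updated through RefSeq. A further 262 clusters are not reported here. Clusters with a mean above background (5.98) were tested with limma 3.58.1 in R 4.3.3 (lmFit, eBayes with trend, Benjamini-Hochberg adjustment at 0.05), without a replicate block, over 7 lines or over the 3 lines with 3 cultures. Tables were made with Python 3.11.15 and pandas 2.3.3. On simulated data, 200 of 13973 clusters were changed in 1 line. In the 7-line test a shift of 1 log2 unit in GM10835 was recovered for 73.5% of them and a shift of 0.5 for 0.5%. For a line with 1 culture, GM07019, a shift of 1 gave 7.5% and a shift of 2 gave 87.5%. In the data 61.8% of clusters were called, so the simulated setting differed and these rates do not give the power of the test there.

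The members and the gene lists were chosen with earlier results of these data known. Named genes were the 24 highest levels, the 24 largest and 12 smallest SDs, the 3 highest levels and 2 largest SDs of each list, 5 differences per direction and contrast, the 12 widest on-off ranges, the 3 widest gaps of each line, and a short list of B cell genes. Cell type markers come from marker lists, and OAS3 was chosen after its values were seen. Alternatives were other scalings, filters, variance priors, single duplicates, left-out cultures or lines, and a replicate block. Same-numbered cultures of different lines deviated from their line means with a mean correlation of -0.09 (9 pairs, -0.45 to 0.14). For different numbers the mean was 0.05 (18 pairs, -0.51 to 0.49). Whether cultures of different lines shared a batch was not tested.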

Additional observations from a re-analysis of the deposited data

Results flagged for a closer look

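In groups of 7 lines, a line was singled out when its gap to the nearest other line, divided by the range of all 7, exceeded Dixon's 95% critical value. Of 101 values looked at, 13 did so. Chance gives about 1 in 20 for values not chosen on their spread, but many of these genes and lists were chosen on the same lines, so that rate does not apply to them.

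Among genes, ND5 had the widest gap, 0.924 of the range, with GM12813 at 4.29 and the next line at 11.90. FCER2 was low in GM12814 (gap 0.730, 10.57 against 11.52). KLHL6 was high in GM10835 (gap 0.708, 10.64 against 7.58), and so was GPM6A (gap 0.6003, 9.20 against 6.91). ENO1 was high in GM10835 (gap 0.596, 13.48 against 13.15), whereas H3C11 was low there (gap 0.573, 11.92 against 12.30).

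Among median deviations of gene lists, GM10835 was the highest line for oxidative phosphorylation (gap 0.804, 1.00 against -0.03), cytosolic ribosomal proteins (gap 0.775, 0.54 against -0.05), glutathione, metallothionein and redox genes (gap 0.697, 0.57 against -0.01), proteasome subunits (gap 0.592, 0.76 against 0.11) and glycolytic enzymes (gap 0.580, 0.37 against 0.06). GM07019 was highest for chemokine and cytokine receptors (gap 0.571, 0.49 against 0.08). GM12812 was lowest for cholesterol and fatty acid synthesis (gap 0.622, -0.12 against 0.00).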

How the results depend on the processing

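The count of clusters that differed among 7 lines was 8639, and 3189 without GM10835. Without the first array of the third GM12813 culture, an alternative chosen after seeing the data, it was 9438. Leaving out 1 culture of the replicated lines at a time gave 7070 to 9577 among 7 lines, 6542 to 7995 between 3 lines, 5323 to 7374 for GM10835 against GM07029, 2245 to 3503 for GM12813 against GM07029 and 4248 to 5467 for GM12813 against GM10835. GM12813 against GM07029 gave 3446 with duplicates averaged, 1898 with the first array alone and 3847 with the second. Of the 24 largest spreads 15 remained without GM10835, an alternative chosen after seeing the data. A margin of 3 log2 units left 21 of 84 on-off genes. A lead of 2 log2 units left 20 of 291 line-leading genes and 14 of the 228 of GM10835. The cause of these moves was not tested, except that a wider margin admits fewer genes by construction. The other alternatives kept each count in both directions together within 1.5 times, and no call of a named gene reversed. Counts in 1 direction moved more. Under quantile normalization, clusters higher in GM12813 went from 1778 to 3353 against GM10835 and from 1558 to 2525 against GM07029. The latter were 1037 with the first array alone, 998 with the replicate block and 897 to 1396 without single cultures. The 1888 lower ones were 861 with the first array alone, 1061 without the third GM07029 culture and 1253 without the third GM12813 culture. Other left-out cultures kept the lower count within 1.5 times. It rose without the first GM12813 culture, where 1147 of 3324 calls were higher. With the replicate number as a block the counts were 7005 between 3 lines, 6041 for GM10835 against GM07029, 2495 for GM12813 against GM07029 and 4817 for GM12813 against GM10835. Of 159 named genes called among 7 lines, 96 were also called without GM10835, and 149 to 156 without each other line. Signals close to background limit what low genes can show.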
